A study of Mus musculus with 6 samples.

Results

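The 35 genes described here encode enzymes and regulators of sterol and lipid metabolism, and were taken by name from the 53618 named rows of a bulk RNA-seq table. They fall into 6 roles: 7 enzymes of the mevalonate steps, 11 of the squalene and sterol steps, 5 proteins of SREBP control, 3 of sterol transport, 6 of the liver X receptors (LXR) and their targets, and 3 of fatty acid synthesis. They were listed by their known function, though with earlier results of these data known. Of the 35 genes, 34 reached a value of 10 in 3 or more of the 6 libraries and were tested, and Fdps was not.

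The libraries came from GFP+Lin-c-Kit+ splenocytes of mice carrying acute myeloid leukemia. The leukemia began in fetal liver cells of genotype Usp18+/f UBCER-Cre that were transduced with a retrovirus for AE9a, a truncated AML1-ETO fusion protein, and GFP. UBCER-Cre is a Cre recombinase under the ubiquitin C promoter, active in all tissues after tamoxifen. The cells were passed on to sub-lethally irradiated C57BL/6 recipients, young adult mice which keep blood cells of their own. Once sick, recipients were given 3 injections of oil (Usp18+/f, 3 mice) or tamoxifen (Usp18+/Δ, 3 mice), and cells were sorted 3 days after the first injection. The leukemia cells of all 6 mice therefore carried AE9a, GFP and Cre, and came from cells with the floxed allele. No group received tamoxifen without that allele, so the drug and the loss of 1 Usp18 allele cannot be told apart here. The comparison asked how loss of 1 allele of Usp18, a brake on interferon signaling, changes the transcripts of these cells.

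Cholesterol is built from acetyl-CoA through mevalonate, isoprenoids, squalene and a series of sterols. When sterols in the endoplasmic reticulum fall, SCAP carries the SREBP factors to the Golgi, where they are cut and released to switch on the genes of sterol and fatty acid synthesis, and when sterols are high the INSIG proteins hold SCAP back. Oxysterols and some late intermediates activate LXR, which raises the exporters of cholesterol. Tamoxifen is known to bind the microsomal antiestrogen binding site, made of the EBP and DHCR7 proteins, and can thereby hinder the last steps of sterol synthesis.

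Values are normalized counts, in which the reads of a library were divided by its size factor. The libraries held 19164795 to 23770537 reads in named genes, and 1 read was worth 0.898 to 1.28. Usp18 was higher under the tamoxifen label, at 284 to 477 normalized counts against 176 to 217 under the oil label. It is itself induced by interferon, and a value over the whole gene does not isolate the floxed part, so it does not check the deletion, and directions below are between labels. Kit and Gata2, which mark the sorted progenitors, were abundant in every library, at 4687 or more and 8872 or more normalized counts, while Flt3 and Mpo, also markers of myeloid progenitors, stayed at 1.28 or less and 20.2 or less. The 8 progenitor markers summed to 33663 to 39823 normalized counts in oil and 31298 to 37938 in tamoxifen libraries. Of these, Myb (5328 to 6692 against 3097 to 5188) and Runx1 (11592 to 12791 against 9996 to 11220) were lower in every library labelled tamoxifen. They are 2 of the 6 markers tested, beside 9.69% of all genes. Mpo, not tested, went the other way, at 0 to 4.64 against 6.39 to 20.2, with 0 to 5 reads in oil libraries. Cd93 had 4.64 to 20.7 in oil and 8.95, 21.2 and 23.6 in tamoxifen 1, 2 and 3. Kit, Cd34, Gata2 and Flt3 overlapped between labels. The library labelled tamoxifen 1 stood apart. Across genes it correlated with the other 5 at a median of 0.913, against 0.981 to 0.990, and mitochondrial genes took 0.00923% of its reads against 1.01% to 1.56%. Fold changes of the 12 members with the smallest unadjusted p are therefore given with and without it.

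No member passed an adjusted p of 0.05 in limma, a linear model with a shared estimate of spread, over all 6 libraries at equal weight. The same test called 0.0% of the 12298 genes tested. DESeq2 on recovered reads called 78 genes and edgeR 0, and neither called a member. With library weights, which gave tamoxifen 1 a weight of 0.0377, limma over the 6 libraries called 6.36% of all genes and 3 members, Abca1 (adjusted p = 0.000865), Nr1h3 (0.0417) and Abcg1 (0.0472). At an unadjusted p under 0.05, 3 of the 34 members tested passed, the LXR genes Abca1, Nr1h3 and Abcg1, where 4.47% of all genes did (550 genes). Nr1h3 reached a value of 10 only in the libraries where it was higher, so its calls here were partly fixed by the filter. Without it the count at the unadjusted threshold was 2 of 33. Without tamoxifen 1, limma called 0.333% of all genes and no member, and 5 of 34 members passed the unadjusted threshold (4 of 33 without Nr1h3) against 12.1% of all genes. DESeq2 then called 1.78% and edgeR 0.374% of all genes, and each called 1 member, Abca1.

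In 4 members the lowest library labelled tamoxifen exceeded the highest labelled oil, and in 1 the order was the opposite. The first 4 were Abca1, Nr1h3, Abcg1 and Fasn, and the other was Npc2. These are 11.8% and 2.94% of the members tested, beside 7.86% and 9.69% of all genes. Nr1h3 was tested only through the libraries in which it was higher, so its place in this count was partly fixed by the filter, and without it 3 of 33 members (9.09%) lay above oil. With tamoxifen 1 left out, the shares were 11.8% and 5.88%, beside 12.6% and 16.8% of all genes. The members as a whole thus separated the labels no more often than genes at large once that library was left out. With 3 libraries a side, the smallest p of a two-sided exact permutation test is 0.1.

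**Figure D1:**
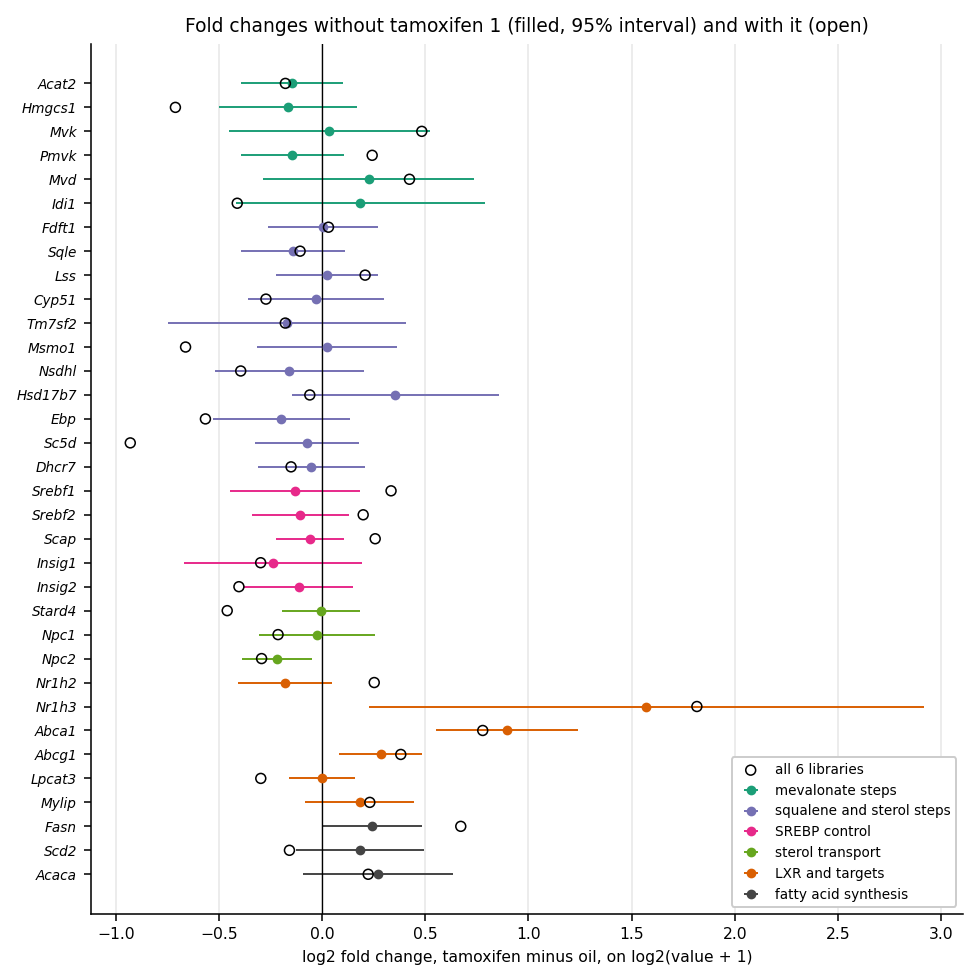
Log2 fold change (x axis, tamoxifen minus oil on log2(value + 1)) of the 34 tested members (y axis), from limma. Filled points leave out tamoxifen 1 and carry 95% intervals, colored by role, and open circles use all 6 libraries. Without tamoxifen 1, Abca1, Abcg1 and Fasn have intervals above 0, Fasn only just (0.0019 to 0.48), and Npc2 has one below 0. That of Nr1h3 also lies above 0, but Nr1h3 was tested only through the libraries where it was higher. The 17 tested cholesterol synthesis enzymes all have intervals that span 0.

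The enzymes that build cholesterol did not separate the labels. Of the 17 tested in the mevalonate, squalene and sterol steps, none had groups that did not overlap, with or without tamoxifen 1. Over all genes, 7.86% lay above oil in every library and 9.69% below, and 12.6% and 16.8% without tamoxifen 1. None of the 17 reached an unadjusted p under 0.05 in limma either way. Of all genes, 4.47% did, and 12.1% without tamoxifen 1. The median log2 fold change of the 17 enzymes was -0.18 over 6 libraries and -0.05 without tamoxifen 1. The same medians over all genes tested were -0.02 and -0.02. Single enzymes lay between -0.20 (Ebp) and 0.35 (Hsd17b7) without tamoxifen 1, with 95% intervals reaching from -0.75 (Tm7sf2) to 0.86 (Hsd17b7). Changes inside such intervals were not detectable with these libraries.

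Hmgcs1, which makes HMG-CoA and is a textbook target of SREBP, had 580.3, 427 and 549 normalized counts in oil 1, 2 and 3, and 147, 498 and 421 in tamoxifen 1, 2 and 3. Tamoxifen 1 stood far below the oil range and tamoxifen 3 at its lower edge. The log2 fold change was -0.71 (SE 0.46, limma adjusted p = 0.666), and -0.17 (SE 0.15, adjusted p = 0.697) without that library. Among the 28 member genes with a promoter in RefSeq (GRCm38.p6), Hmgcs1 alone held the SREBP site TCACNCCAC on either strand, a sequence found in 1.24% of the 32851 promoters of the same length. The bases before its start site, at chr13:119690101-119690350 on the plus strand, are printed because they hold that site, in capitals. Its first base lies 137 bases before the start.
Hmgcs1: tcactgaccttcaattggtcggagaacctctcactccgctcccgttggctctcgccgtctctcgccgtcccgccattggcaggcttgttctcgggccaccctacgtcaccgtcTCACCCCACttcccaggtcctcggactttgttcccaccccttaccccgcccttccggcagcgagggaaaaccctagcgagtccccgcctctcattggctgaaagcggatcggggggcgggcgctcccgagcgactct
The other motifs searched stood in a larger share of member promoters than of all promoters. The NF-Y box CCAAT stood in 62.2% of the 37 member promoters and 37.4% of all promoters, and the Sp1 box GGGCGG in 73.0% and 35.7%. The E-box CACGTG stood in 18.9% and 7.15%, in 6 genes (Abca1, Dhcr7, Hsd17b7, Insig1, Sc5d and Scap). The 4 motifs were searched on both strands and none contains another. A match is a description of the letters and no evidence of binding, and a missing match says only that the letters are not in the window.

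The other mevalonate enzymes differed mainly by how tamoxifen 1 read them. Mvd, which turns mevalonate diphosphate into the first isoprenoid, had 153, 155 and 260.0 normalized counts in the oil libraries and 325, 215 and 214 in those labelled tamoxifen, and the groups overlapped through oil 3. Its log2 fold change was 0.42 (SE 0.30, limma adjusted p = 0.666), and 0.22 without tamoxifen 1. Mvk and Pmvk, the 2 kinases before it, were highest in tamoxifen 1, at 767 and 1417 normalized counts, against ranges of 246 to 406 and 609 to 771 in the other 5 libraries. Idi1, the isomerase of the isoprenoid units, was lowest there, at 65.2 against 156 to 299. Acat2, the thiolase that joins acetyl-CoA units, spread little, from 745 to 984. Of its 75-base windows, 40.7% also occur in Acat3, and 20.7% of those of Idi1 in 4 other genes, so the level of both is uncertain.

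Fdps, the farnesyl diphosphate synthase and the untested member, was nearly unread. It had 6.29, 4.82 and 6.50 normalized counts (7, 5 and 7 reads) in the oil libraries, and 0, 3.03 and 5.46 (0, 3 and 6 reads) in tamoxifen 1, 2 and 3. Of its 75-base windows, 80.4% occur in 5 other genes, and this low value says little of the transcript's true level.

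Among the squalene and sterol steps, Ebp, the sterol isomerase that takes part in tamoxifen binding, had 867, 966 and 1078 normalized counts in the oil libraries and 391, 999 and 710.2 in those labelled tamoxifen. Tamoxifen 2 lay within the oil range, and tamoxifen 1 and 3 lay below it. The log2 fold change was -0.57 (SE 0.34, limma adjusted p = 0.666), and -0.20 (SE 0.15, adjusted p = 0.633) without tamoxifen 1. Dhcr7, the reductase of the last step and the partner of EBP in that binding site, had 2499, 2897 and 3041 normalized counts against 2201, 3023 and 2417, which overlap. Neither of the 2 genes whose products bind the drug separated the labels.

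Sc5d, the desaturase just before DHCR7, had 482, 521 and 574 normalized counts in the oil libraries and 83.1, 509 and 487 in tamoxifen 1, 2 and 3. Nearly all of its difference lay in tamoxifen 1, as the log2 fold change of -0.93 (SE 0.69, limma adjusted p = 0.666) became -0.07 (SE 0.11, adjusted p = 0.834) without it. Nsdhl, a dehydrogenase of C4 demethylation, had 389, 389.8 and 514 against 234, 432 and 338 normalized counts, with a log2 fold change of -0.40 (SE 0.27, limma adjusted p = 0.666) and -0.16 without tamoxifen 1. Tamoxifen 2 lay inside its oil range and the other 2 lay below it.

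The remaining enzymes of these steps had ranges that overlapped between labels. Sqle, the squalene epoxidase, ranged from 1468 to 1822 normalized counts in oil and from 1363 to 1629 in tamoxifen libraries, and Fdft1, the squalene synthase, from 1190 to 1408 and from 1130 to 1413. Lss, which closes the sterol rings, was highest in tamoxifen 1 (1002, against 627 to 759.5 elsewhere). Cyp51, Msmo1 and Hsd17b7, which take part in removing methyl groups from the rings, were lowest there. They had 420.5, 107 and 137 normalized counts in tamoxifen 1, against lowest values of 611, 385 and 194 elsewhere. Tm7sf2, a sterol reductase, was low throughout, at 41.3 to 57.6. Exons of Fdft1 (18.3%, with Ctsb) and Tm7sf2 (12.1%, with Vps51 on the same strand) overlap another gene, and without a stated strand setting reads there cannot be assigned with certainty.

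**Figure D2:**
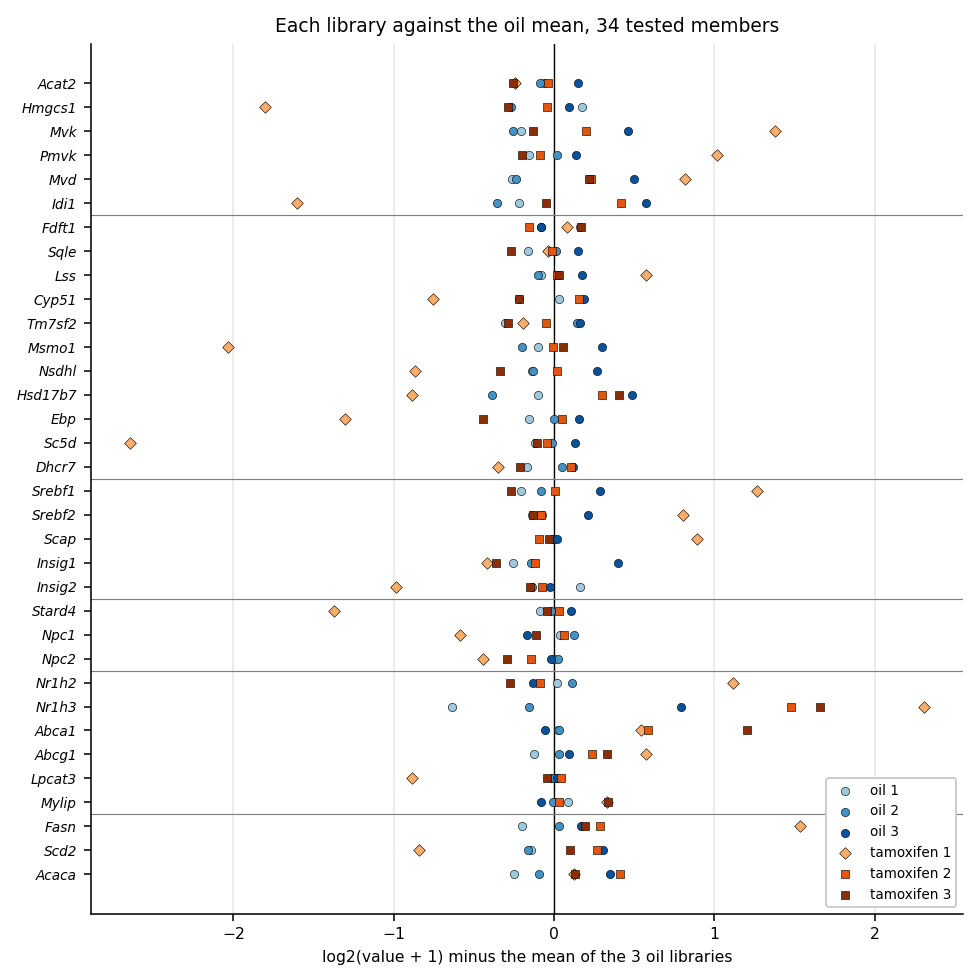
Log2(value + 1) of each library minus the mean of the 3 oil libraries (x axis) for the 34 tested members (y axis), with lines between roles. Circles are oil 1 to 3, the diamond is tamoxifen 1, and squares are tamoxifen 2 and 3. The diamond is the highest or lowest of the 6 libraries in 27 of 34 members (79.4%), beside 82.7% of all genes. Oil 3 is the highest oil library in 26 (76.5%), beside 37.0% of all genes.

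Oil libraries differed among themselves in these genes. Oil 3 was the highest of the 3 oil libraries in 15 of the 17 tested cholesterol synthesis enzymes (88.2%) and in 26 of the 34 members (76.5%), beside 37.0% of all genes. The median deviation of the 17 enzymes from the oil mean was 0.16 on the log2 scale in oil 3, and -0.14 and -0.10 in oil 1 and 2. Between the other libraries labelled tamoxifen, tamoxifen 2 was above tamoxifen 3 in 13 of the 17, with median deviations of 0.02 and -0.20, beside 56.5% of all genes. The enzymes share each library, so these counts are a description and not independent observations. The gap between oil 3 and the other oil mice was thus larger than the median difference of the 17 enzymes between labels.

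Over 6 libraries the genes of SREBP control overlapped between labels as well. Srebf1, which encodes the SREBP factors of fatty acid synthesis, had 5359, 5853 and 7528 normalized counts in the oil libraries and 14862, 6210 and 5121 in those labelled tamoxifen, and Srebf2, for sterol synthesis, had 5763, 6012 and 7319 against 11076, 5992 and 5775. In both, tamoxifen 1 was the highest library and tamoxifen 2 and 3 lay at or near the oil range. Scap had 2116, 2117 and 2155 normalized counts against 3948, 1998 and 2088, so tamoxifen 2 and 3 lay just below the oil libraries, which left Scap lower without tamoxifen 1, and tamoxifen 1 far above.

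Insig2, which retains SCAP and is less tied to SREBP than Insig1, had 580.3, 472 and 511 normalized counts in oil 1 to 3 and 262, 492 and 467 in tamoxifen 1 to 3. The log2 fold change was -0.40 (SE 0.28, limma adjusted p = 0.666), and -0.11 without tamoxifen 1. Insig1, itself an SREBP target, had 305, 331 and 483 against 274, 336 and 285, and oil 3 stood highest. With 5 genes tested, the role's median log2 fold change was 0.20 over 6 libraries and -0.11 without tamoxifen 1, so its sign rested on that library.

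Sterol transport held the member that was lower in every library labelled tamoxifen. Npc2, the lysosomal protein that hands cholesterol to NPC1 (gene on chromosome 12, 84754562 to 84773152, minus strand of GRCm38), read 6022, 6117 and 5934 normalized counts in oil and 4430, 5451 and 4913 in those labelled tamoxifen, means of 6024 ± 91.2 and 4931 ± 511 (SD, n = 3 each). The groups did not overlap. Its log2 fold change was -0.29 (SE 0.14, limma adjusted p = 0.666), and -0.22 (SE 0.08, adjusted p = 0.294, 95% interval -0.39 to -0.05) without tamoxifen 1. Npc1, its membrane partner, had 403 to 494 normalized counts in oil and 300.3 to 472 in tamoxifen libraries. Stard4, which carries cholesterol through the cytosol, had 1854 to 2120 against 762, 2014 and 1914, and only tamoxifen 1 left the oil range.

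LXR and its targets had a median log2 fold change of 0.32 over 6 libraries and 0.23 without tamoxifen 1 (6 genes tested), beside -0.02 for all genes both ways. The median includes Nr1h3, which was tested only through the libraries where it was high, and without that gene it was 0.25 and 0.18 (5 genes). Abca1, which exports cholesterol and phospholipid to lipid-poor apolipoproteins, carried the smallest p of all members. It had 925, 930.0 and 876 normalized counts in oil 1, 2 and 3 and 1327, 1366 and 2100 in tamoxifen 1, 2 and 3, means of 910.3 ± 30.1 and 1597 ± 435 (SD, n = 3 each). Every library labelled tamoxifen lay above every oil library, and tamoxifen 3 stood highest. The log2 fold change was 0.78 (SE 0.21, unadjusted p = 0.00867, limma adjusted p = 0.666). Without tamoxifen 1 it was 0.90 (SE 0.15, 95% interval 0.55 to 1.24), with an adjusted p of 0.0611 in limma, 0.0496 in edgeR and 4.18e-06 in DESeq2. The result thus was as large without the library that stood apart, and whether it passed depended on the test. The gene (ENSMUSG00000015243.4) lies on chromosome 4 from 53030787 to 53159895 on the minus strand of GRCm38. The bases before its RefSeq start, chr4:53159896-53160145, are printed because it is the member with the smallest p, with its E-box in capitals.
Abca1: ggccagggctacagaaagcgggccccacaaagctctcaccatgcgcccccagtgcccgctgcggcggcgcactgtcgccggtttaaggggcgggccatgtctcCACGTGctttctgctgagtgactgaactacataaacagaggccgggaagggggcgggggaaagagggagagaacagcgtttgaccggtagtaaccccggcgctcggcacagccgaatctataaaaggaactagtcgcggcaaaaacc
The E-box begins 147 bases before the start, and the promoter window also held 2 Sp1 boxes and no NF-Y box.

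Abcg1, the exporter that loads cholesterol onto mature HDL (gene on chromosome 17, 31057675 to 31117988, plus strand, GRCm38), followed with smaller differences. Normalized counts were 1577, 1760 and 1838 in the oil libraries and 2568, 2027 and 2166 in those labelled tamoxifen, means of 1725 ± 134 and 2254 ± 281 (SD, n = 3 each). All 3 again lay above oil. The log2 fold change was 0.38 (SE 0.15, unadjusted p = 0.0453, limma adjusted p = 0.666), and 0.28 (SE 0.09, adjusted p = 0.257, 95% interval 0.08 to 0.48) without tamoxifen 1.

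Nr1h3, which encodes LXRα, was barely expressed. It had 1.80, 2.89 and 6.50 normalized counts (2, 3 and 7 reads) in the oil libraries and 20.4, 11.1 and 12.7 (16, 11 and 14 reads) in tamoxifen 1, 2 and 3. The log2 fold change was 1.82 (SE 0.51, unadjusted p = 0.0105, limma adjusted p = 0.666), and 1.57 (adjusted p = 0.339) without tamoxifen 1. Of its oil libraries, 2 lay at 3 reads or fewer, where no order is read. Nr1h2, which encodes LXRβ, was the abundant receptor, at 1200 to 1424 normalized counts in oil, and read 2858, 1238 and 1087 in tamoxifen 1, 2 and 3, so that the labels overlapped.

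The 2 other LXR targets did not separate. Mylip, a ubiquitin ligase that degrades lipoprotein receptors, had 619.8, 583 and 552 normalized counts in oil and 734, 596 and 737 in tamoxifen libraries, with a log2 fold change of 0.23 (SE 0.16, limma adjusted p = 0.666) and 0.18 without tamoxifen 1. Tamoxifen 2 fell between the oil libraries. Lpcat3, which places polyunsaturated chains in phospholipids, had 5500 to 5653 normalized counts in oil and 3012, 5738 and 5404 in tamoxifen 1, 2 and 3. Leaving out Nr1h3, 2 of the other 5 genes of this role thus had groups that did not overlap, where 7.86% of all genes lay above oil. Whether the targets differed from each other was not tested.

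**Figure D3:**
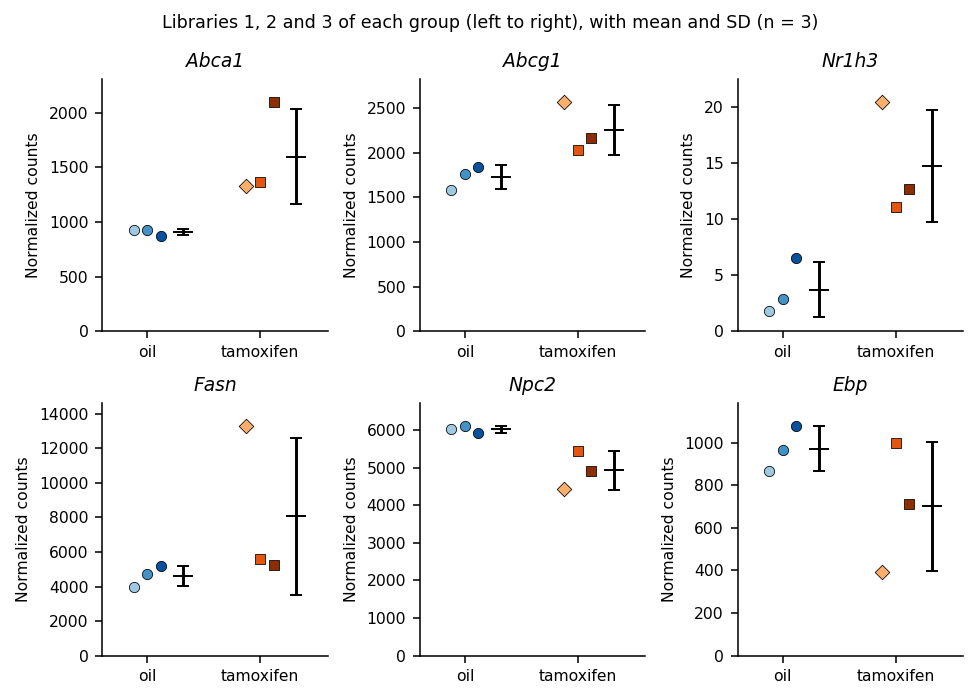
Normalized counts (y axis, from 0) of 6 members in each library labelled oil (circles) or tamoxifen (diamond for tamoxifen 1, squares for 2 and 3), with the mean and SD beside them (n = 3). Abca1, Abcg1 and Fasn show every tamoxifen library above oil, Npc2 every one below, and Ebp shows overlap. Nr1h3 had 2 to 7 reads in oil libraries and 11 to 16 in the others. In Fasn the separation of tamoxifen 2 and 3 from oil is narrow, 5262 against 5178.

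Macrophages express LXR and its exporters strongly, and several of their markers were also higher in the libraries labelled tamoxifen. Of 12 macrophage markers, 7 were tested, of which Csf1r, C1qa and Cd68 were higher in every library labelled tamoxifen. C1qb was as well, and C1qc, Mrc1 and Cd5l overlapped between labels. These 4 reached 10 in fewer than 3 oil libraries and were tested only through those labelled tamoxifen, so no share of the list is read. Fcgr1, not tested, had means of 5.28 in oil and 2.70 in tamoxifen libraries. The 12 summed to 99.4 to 214 normalized counts in oil libraries and 227 to 320 in those labelled tamoxifen. Vsig4, a marker of some tissue macrophages, was at 0 in all 6 libraries, and Adgre1 had 0.928 to 6.75 normalized counts in oil and 3.83 to 11.1 in tamoxifen libraries. The sort for GFP and c-Kit and against lineage markers is meant to leave mature cells out. The part of such cells in the Abca1, Abcg1 and Nr1h3 values was not tested. In bulk samples, fewer cells of a type and less RNA per cell cannot be told apart.

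Markers of other blood cells were also compared. Neutrophil markers summed to 5.39 to 7.72 against 26.4 to 62.6 normalized counts, with Ly6g at 0 throughout, and the NK cell list, all of it Nkg7, to 58.9 to 159 against 193 to 661, with Ncr1 and Klrb1c at 0. T cell markers summed to 4.04 or below in every library, with Cd3e and Cd8a at 0, and the B cell marker Ms4a1 was at 0 throughout. Cd79b, also a B cell marker, had 0.929 to 2.89 normalized counts in oil and 5.05 to 16.6 in tamoxifen libraries, and Cd79a overlapped. Erythroid and megakaryocyte sums overlapped between labels, at 33449 to 46802 against 38211 to 72971 and 162 to 199 against 187 to 634. Mast cell and basophil sums were 26305 to 26903 in oil libraries, 8035 in tamoxifen 1, and 28740 and 29795 in tamoxifen 2 and 3, so they overlapped only through tamoxifen 1. Cpa3, a mast cell protease, had 3823, 3992 and 4174 normalized counts in oil and 4074, 7774 and 9431 in tamoxifen libraries, and passed in limma without tamoxifen 1 (adjusted p = 0.00183). In all 3 libraries labelled tamoxifen Mcpt8 was higher and Ms4a2 lower than in oil. Their part in the members' values was not tested.

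Fatty acid synthesis held the other member above oil in every library. Fasn, the fatty acid synthase (gene on chromosome 11, 120805846 to 120824547, minus strand of GRCm38), read 4001, 4696 and 5178 normalized counts in oil and 13301, 5620 and 5262 in tamoxifen 1, 2 and 3. Most of the difference came from tamoxifen 1, as the log2 fold change of 0.67 (SE 0.37, limma adjusted p = 0.666) was 0.24 (SE 0.11, adjusted p = 0.411, 95% interval 0.0019 to 0.48) without it. After correction for GC content the groups overlapped. Acaca, which makes malonyl-CoA, had 1141, 1271 and 1729 against 1484, 1805 and 1488 normalized counts, and 47.4% of its 75-base windows occur in the pseudogene Gm5182. Scd2, a stearoyl-CoA desaturase, had 13219, 13069 and 18018 against 8135, 17589 and 15636, and its only library outside the oil range was tamoxifen 1.

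Differences of tamoxifen 1 from the other libraries labelled tamoxifen followed the base composition of the members. In all 9 members above 55% GC it was the higher, by a median of 1.16 on the log2 scale, and in all 10 below 47% it was the lower, by a median of -1.30. The 15 members between had 5 higher and 10 lower. Across the 34 members, which share these libraries, Pearson's r between GC content and this difference was 0.87 and Spearman's rho 0.84, where all genes gave 0.65 and 0.69. Between tamoxifen 2 and 3 the same r was -0.08. Srebf1 (58.4% GC) and Fasn (57.9%) were among the 9 and Sc5d (42.9%) and Hmgcs1 (43.1%) among the 10, while Abca1 (47.5%), Abcg1 (52.7%) and Npc2 (51.3%) lay between.

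**Figure D4:**
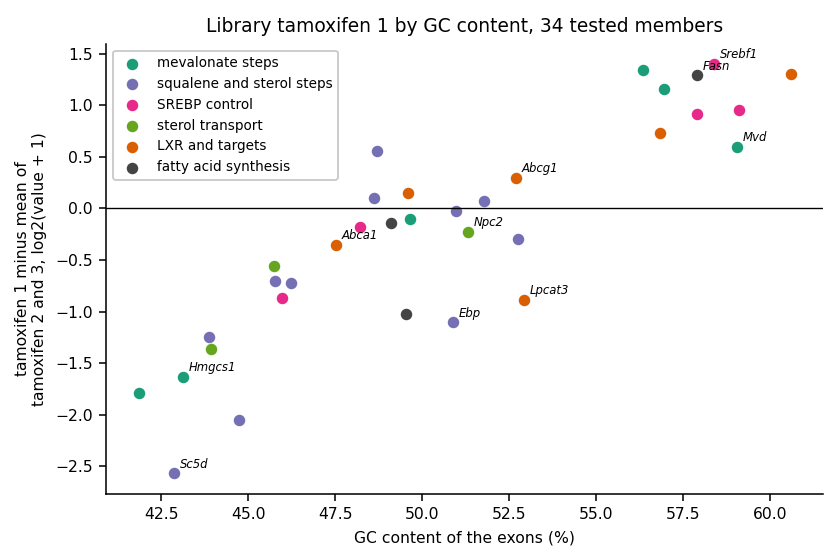
Difference of tamoxifen 1 from the mean of tamoxifen 2 and 3 on log2(value + 1) (y axis) against GC content in percent (x axis) for 34 members, colored by role. GC content is that of each gene's longest annotated transcript, though the axis names the exons. All 9 members above 55% GC lie above 0 and all 10 below 47% GC lie below 0, from -2.57 (Sc5d) to 1.40 (Srebf1).

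Levels within oil libraries, compared per kb of exon, spanned a wide range. Exon length here joins the exons of all annotated transcripts of a gene, 5438 bases for Npc2 and 10787 for Lss. The transcripts expressed can be shorter, so the order of genes holds on this scale only. Scd2 was highest, at 2703 ± 515 normalized counts per kb (SD, n = 3), followed by Lpcat3 at 1707 ± 23.4. Srebf1 (1109 ± 202) and Npc2 (1108 ± 16.8) did not differ beyond their spread, nor did Srebf2 (886 ± 116) from Srebf1. The sterol enzymes were led by Dhcr7 (483 ± 48.3), Ebp (420.0 ± 45.8) and Pmvk (410.3 ± 41.5), which overlap within their SD. At the other end, Tm7sf2 had 11.8 ± 2.09 normalized counts per kb, and Nr1h3 (1.48 ± 0.978) and Fdps (1.40 ± 0.217) could not be ordered.

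**Figure D5:**
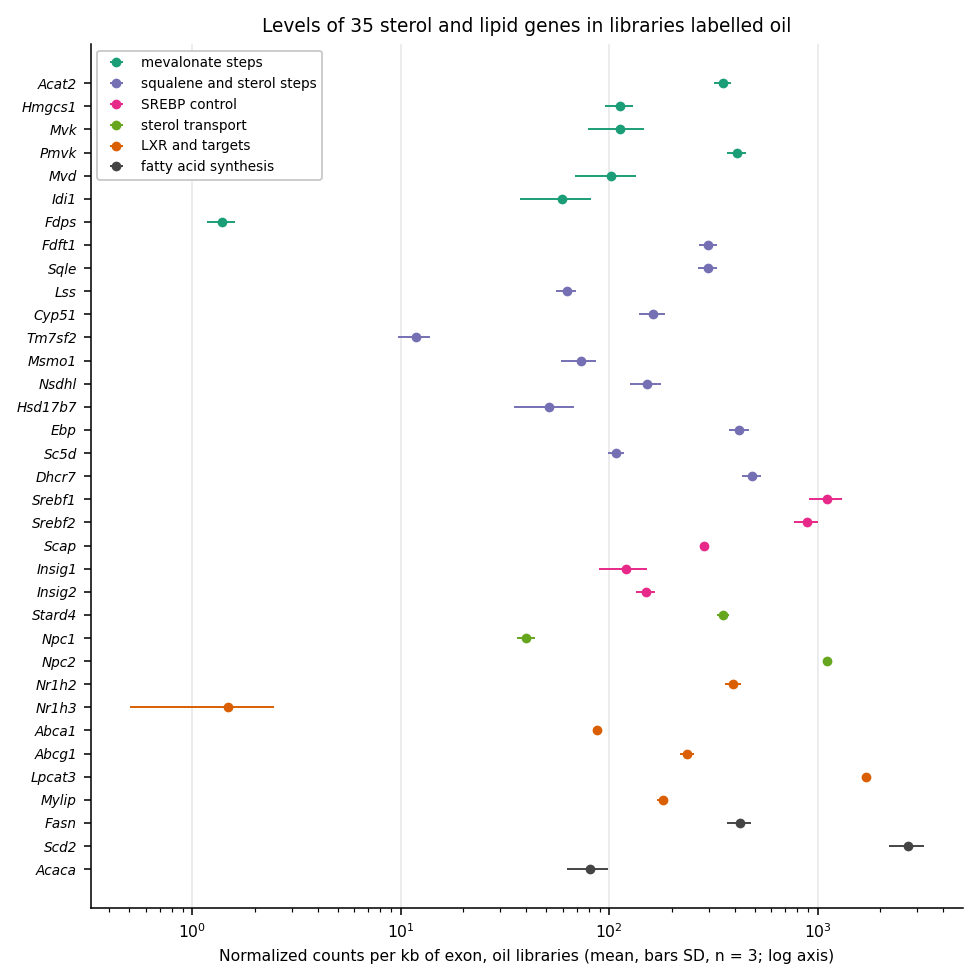
Normalized counts per kb of exon (x axis, log scale) of the 35 genes (y axis) in the 3 libraries labelled oil, as mean with SD bars, colored by role. Exon length joins all annotated transcripts of a gene, so the order holds on this scale only. Scd2, Lpcat3, Srebf1 and Npc2 are the 4 highest, from 1108 to 2703, and Fdps and Nr1h3 the lowest, at 1.40 and 1.48.

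Another 34 genes of the pathway were listed beside the members. Of these, 27 were tested and none passed in limma with or without tamoxifen 1. Lrp1 was tested only through the libraries in which it was higher and is left out of the counts and medians. Of the other 26, every library labelled tamoxifen lay above oil in 3 and below in 3 (11.5% and 11.5%, beside 7.86% and 9.69% of all genes). Without tamoxifen 1 the counts were 3 and 6 (11.5% and 23.1%, beside 12.6% and 16.8%). Median log2 fold changes over 6 libraries were -0.27 for 4 further sterol synthesis genes, 0.08 for 6 genes of SREBP processing and sterol-regulated degradation, -0.07 for 10 of fatty acid and glycerolipid synthesis and 0.06 for 6 of uptake, storage and transport, beside -0.02 for all genes. Without tamoxifen 1 these medians were -0.17, -0.0067, 0.021 and 0.045, so 2 of the 4 changed sign. Lrp1, an endocytic receptor of lipoproteins that macrophages use, had 8.98, 4.82 and 12.1 normalized counts in oil and 38.3, 24.2 and 27.3 in tamoxifen libraries, and reached 10 in only 1 oil library. Pltp, a phospholipid transfer protein and LXR target, had 30.5, 22.2 and 36.2 against 109, 42.4 and 43.7, and Acsl1, an acyl-CoA synthetase, 1287, 1517 and 1344 against 1594, 1524 and 1999. Rnf145, an endoplasmic reticulum ligase, had 2859 to 3049 against 3098 to 3213. Pltp and Acsl1 were above oil in all 3 libraries, with log2 fold changes of 0.99 and 0.30 over 6 libraries and 0.55 and 0.34 without tamoxifen 1.

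Lower in all 3 were Ggps1, which makes geranylgeranyl diphosphate, at 799, 726 and 747 against 102, 698 and 630.2 normalized counts, and Rnf139, another such ligase, at 1094, 1174 and 1109 against 93.3, 1015 and 1020. Gpam, which starts glycerolipid synthesis, had 1558, 1475 and 1415 against 1160, 1410 and 1405. In each of these, tamoxifen 1 was the lowest library and tamoxifen 2 and 3 lay just below oil. Their log2 fold changes were -1.08, -1.29 and -0.17 over 6 libraries and -0.19, -0.14 and -0.07 without tamoxifen 1. Ch25h and Cyp27a1, which make oxysterol ligands of LXR, were nearly unread, Ch25h at 0 in all 6 libraries and Cyp27a1 at 1.01 normalized counts or less. Cyp7b1, which breaks oxysterols down, had 6.75 or less.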

How the data were processed

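Bulk RNA-seq was analyzed in 6 libraries, 3 labelled oil and 3 labelled tamoxifen, with 1 mouse per library and groups taken from the sample titles. Per the submitters' processing notes and the study's methods, reads were aligned with STAR to mm10 and processed with DESeq2. Annotation, strand setting and filters are not given in the sources used here. The values the authors deposited are a signal, each library's reads scaled by its own size factor. In every library 100% of the values were whole multiples of 1 step (tolerance 0.01 reads), which gave back whole reads. Rows without a gene name (1832 of 55450) took 0.0400% to 0.0614% of the reads and were left out.

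limma (version 3.58.1, R 4.3.3, eBayes with trend) was fitted on log2(value + 1) over 12298 named genes that reached a value of 10 in 3 or more libraries. p-values are two-sided, adjusted by Benjamini-Hochberg over all genes, with a threshold of 0.05. The log2(value + 1) scale understates the change of low genes. Alternatives were edgeR (4.0.16) and DESeq2 (1.42.0) on recovered reads, other pseudocounts (0.5 and 5), scalings and filters, library weights, a loess correction for GC content (span 0.3), a replicate block and each library left out, and, chosen after seeing the data, edgeR and DESeq2 without tamoxifen 1. On simulated data for this comparison (12298 genes, 200 changed by 2 on the log2 scale) limma recovered 97.5% of the changed genes with 9 false calls. There edgeR recovered 97% with 10 false calls, and DESeq2 93.5% with 21. The simulation gave all genes and libraries 1 dispersion and held no library that stood apart as tamoxifen 1 did. Changes smaller than 2 were not simulated. It therefore checks that the fits run properly and does not give their power in these data.

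Log2 fold change, standard error and adjusted p were printed for the 12 tested members with the smallest unadjusted p, which include every member whose groups did not overlap. The members and lists were chosen with earlier results of these data known. Coordinates, GC content, exon length and shared 75-base windows came from GENCODE release M21 (GRCm38) by symbol, and promoters, 28 of 35 genes matched, from RefSeq. Exon length joins the exons of all annotated transcripts of a gene, and GC content is that of its longest transcript. Reads carry no molecular identifiers, and 3 reads or fewer were read as no order. Standard errors and intervals came from the limma fits and measure the spread between libraries of a group, not counting error alone. A further marker gene is not reported here.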

Additional observations from a re-analysis of the deposited data

How the results depend on the processing

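The count of members past the adjusted threshold was 0 with all 6 libraries in limma. It was 3 with library weights (Abca1, Nr1h3 and Abcg1), of which Nr1h3 was tested only through the libraries where it was higher. It was 1 (Abca1) with edgeR or DESeq2 without tamoxifen 1, 2 fits chosen after seeing the data. Library weights gave tamoxifen 1 a weight of 0.0377 and the other libraries 0.956 to 3.37. Over all genes the count was 0 in limma, 78 with DESeq2, 782 with library weights, 2 with correction for GC content, 0 to 41 with 1 library left out (41 without tamoxifen 1), 46 with edgeR and 219 with DESeq2 without tamoxifen 1. The cause of these shifts was not tested. The count of members above oil in every library was 4, and 4 to 8 with 1 library left out (8 without oil 3). The count below was 1 and ranged from 1 to 9, with fewer samples to separate. It was 9 without tamoxifen 2, 4 without oil 1, 3 without oil 2 and 2 without tamoxifen 1. Over all genes the shares above and below rose from 7.86% and 9.69% to 12.6% and 16.8% without tamoxifen 1. For the other libraries left out no such share is given, so these counts are not read as a trait of the members. The median log2 fold change of the members, -0.13, stayed negative in all alternatives run and moved by less than the spread of library medians (SD 0.14), from -0.24 without tamoxifen 2 to -0.0083 with edgeR without tamoxifen 1. Of 228 alternative values of the 12 members with printed fold changes, 223 kept their direction and side of the threshold, 5 passed it in addition and none changed sign. Abca1 ranged from 0.56 to 1.06 on the log2 scale, with adjusted p from 4.18e-06 to 0.861. Correlations of same-numbered deviations from the group means were -0.02, 0.06 and -0.15, and so showed no pairing by replicate number. Tamoxifen 1 weighs on the mean of its group, so this check cannot exclude a pairing. The replicate block gave 0 members and 0 genes past the threshold and left the median at -0.13. Groups that do not overlap cannot change with the pseudocount, so no value was computed for it.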
